A study of Homo sapiens with 2 samples.

Results

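The genes studied here encode the nuclear subunits of oxidative phosphorylation. They were taken from the deposited table as protein-coding genes whose symbols belong to the NDUFA, NDUFB, NDUFC, NDUFS and NDUFV series, to SDHA through SDHD, to UQCR or CYC1, to COX4 through COX8, or to ATP5. This rule found 89 of the 58302 listed genes, of which 19817 were protein-coding. By symbol, 37 belong to complex I, 4 to complex II, 10 to complex III, 17 to complex IV and 21 to complex V. The rule also takes in relatives that are not fixed subunits, such as the ATP synthase inhibitor ATP5IF1, the readthrough gene ATP5MF-PTCD1 and the supercomplex factor COX7A2L. It leaves out NDUFAB1 and cytochrome c (CYCS). NDUFA4 is counted with complex I by its symbol, although its product is known as a subunit of complex IV.

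The study put an EIF2S3 transgene into HL60, a human myeloid leukemia line kept in culture, with the Retro-X Tet-Off Advanced system. EIF2S3 encodes the gamma subunit of the initiation factor eIF2, which brings the initiator tRNA to the ribosome. In the library labelled DOX(-) the HL60-EIF2S3 cells were untreated, so that by design the transgene was on. In the library labelled DOX(+) the same line was treated with doxycycline, which by design turns the transgene off. Whether the line is 1 clone, and the dose and length of the doxycycline exposure, are not stated in the sources used here. There is 1 library per condition, so nothing below has a replicate check, and no test or p-value is given. Values are FPKM, fragments scaled to the length of the transcript and the size of the library, and ratios are DOX(-) over DOX(+).

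In the inner mitochondrial membrane, complexes I, III and IV pass electrons from NADH to oxygen and pump protons, complex II feeds in electrons from succinate without pumping, and complex V uses the proton gradient to make ATP. Complexes I, III, IV and V are built from nuclear-encoded and mitochondrially encoded subunits together, while every subunit of complex II is nuclear-encoded. In dividing cells the chain also reoxidises NADH, which the synthesis of aspartate and nucleotides depends on.

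The library labelled DOX(-) corresponded to 16577643 fragments and the library labelled DOX(+) to 18521267, as recovered from the spacing of low FPKM values. A count of 3 fragments on a transcript of 1 kb corresponds to 0.181 FPKM in DOX(-) and to 0.162 in DOX(+). The level of EIF2S3 was close in both, 132.9 FPKM in DOX(-) against 126.2 in DOX(+). The conditions are therefore named as the libraries labelled DOX(-) and DOX(+), and doxycycline itself differs between them as well. Of 7 promyelocyte markers, ELANE, PRTN3, AZU1, CTSG, MYB and CD33 were above 8 FPKM in both libraries, while MPO was at 0.274 FPKM in DOX(-) against 0.469 in DOX(+). The 7 summed to 1388 FPKM in DOX(-) against 1116 in DOX(+). T cell and epithelial markers were all listed at 0. The 3 B cell markers summed to 1.94 FPKM in DOX(-) against 0.949 in DOX(+). The sum of the 3 erythroid markers was 1.37 FPKM in DOX(-) against 3.46 in DOX(+). For the 3 fibroblast markers it was 0.0186 FPKM in DOX(-) against 0.0458 in DOX(+).

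As a group the nuclear subunit genes stood at close levels in both libraries. Of the 89 genes, 81 reached 1 FPKM in at least 1 library, and each of these was above 1 FPKM in both. Their FPKM summed to 2812 in DOX(-) and 2637 in DOX(+), a ratio of 1.07, or 0.998% of the FPKM total in DOX(-) against 0.917% in DOX(+). On the log2 ratio of FPKM + 1, the 81 genes ranged from -1.09 to 0.60 with a median of 0.00 and quartiles at -0.11 and 0.14. Above 0 were 41 of the 81 genes, against 46.6% of all 11525 genes that reached 1 FPKM, whose median was -0.02. The split of 41 above and 40 below rests on small differences. It became 31 above and 50 below when FPKM were rescaled without the genes of the mitochondrial genome, where 37.4% of all genes tested were above 0. Under trimmed-mean scaling it was 46 above and 35 below, against 49.9% of all genes above 0. The median of all genes tested was -0.08 after the rescaling without mitochondrial-genome genes and -0.00091 under trimmed-mean scaling.

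Few genes of the group differed by a large factor, as was so among all genes at such levels. By a rule of size, 1.5-fold on FPKM + 1, 1 gene of 81 was higher in DOX(-), NDUFB8, and 2 were lower, COX7C and NDUFC2. The others lay between -0.45 for NDUFA7 and 0.44 for ATP5F1B. Over all genes tested the same rule called 3.11% higher and 4.06% lower, or 7.17% in either direction. Among protein-coding genes between the lowest and highest levels of the group, 2.22% of 8162 genes were higher and 2.89% lower. By mean level, the share of all genes 1.5-fold different in either direction was 7.75% at 1 to 5 FPKM and 5.72% at 5 to 20. It was 3.01% at 20 to 50 FPKM and 4.01% at 50 or more. At a smaller size limit, 0.32 on the log2 scale, 13 of the 81 genes differed in either direction, against 22.9% of all genes tested. That share was not matched for level: the median in DOX(-) was 20.3 FPKM in the group and 4.70 over all genes tested. Bulk RNA cannot tell fewer cells expressing a gene from less RNA per cell.

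**Figure D1:**
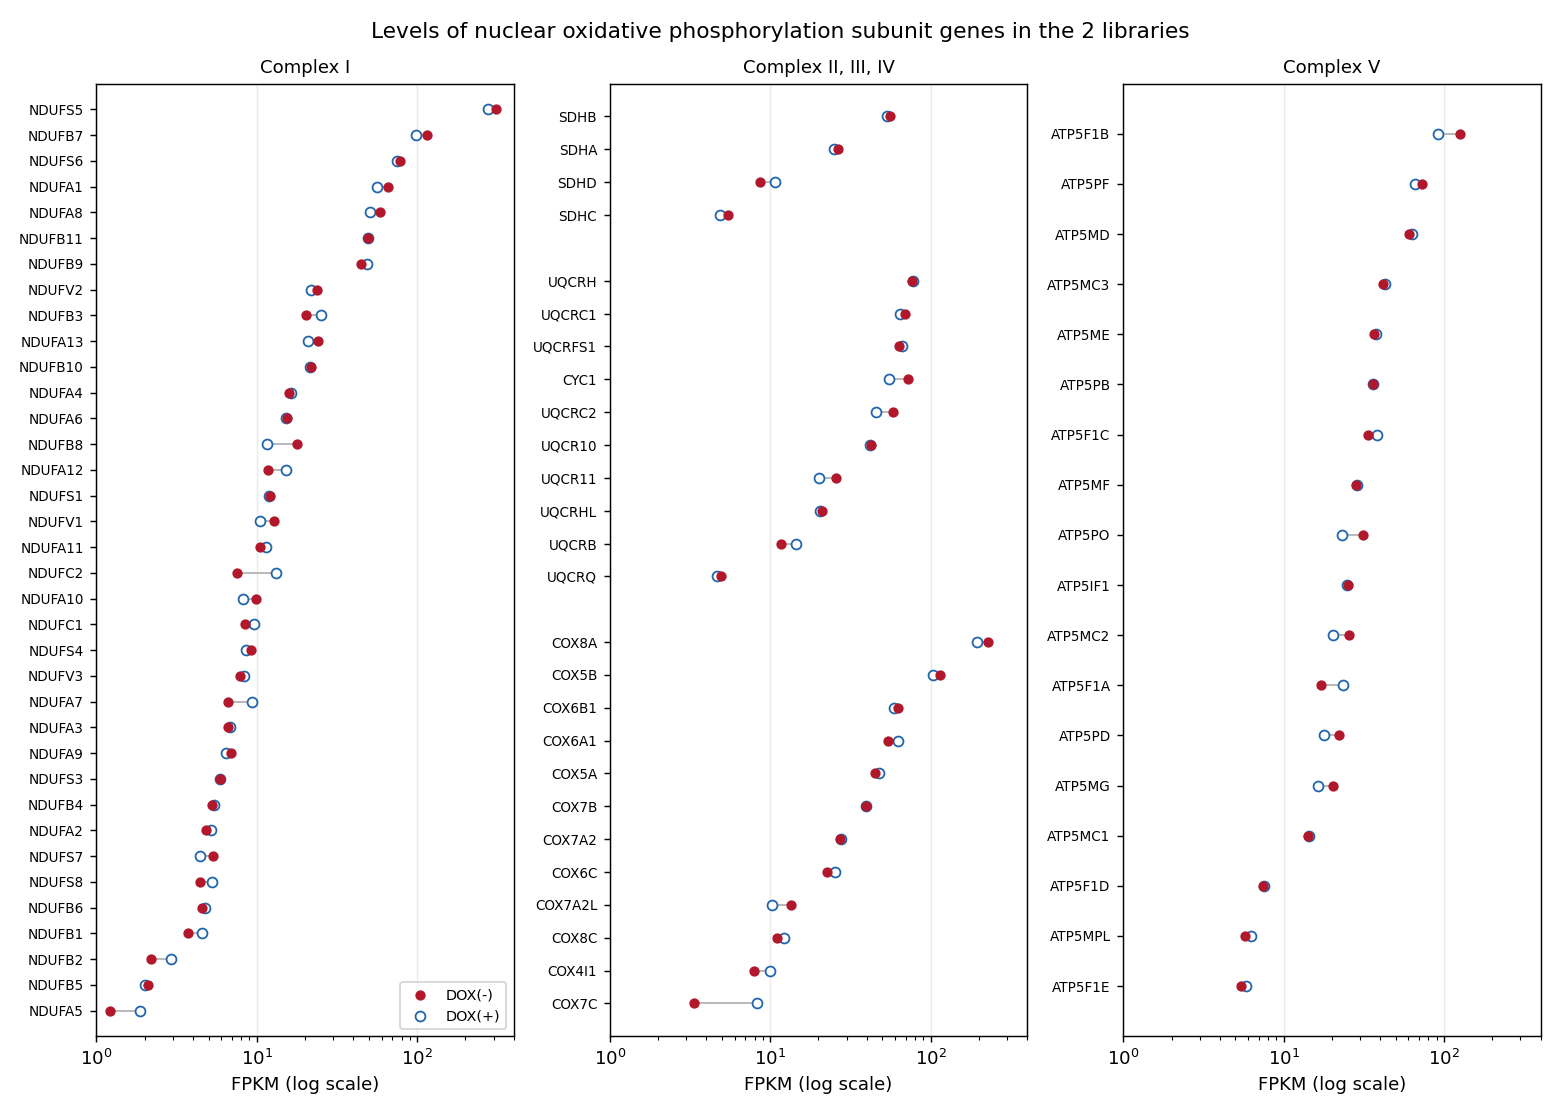
FPKM on a log scale of subunit genes at 1 FPKM or more, all but 1 of those tested, ordered by mean level within each complex, with filled circles for DOX(-) and open circles for DOX(+). The paired circles lie close together for most genes from NDUFA5 near 1 FPKM to NDUFS5 near 300, and the widest gap is that of COX7C, at 3.34 FPKM in DOX(-) against 8.25 in DOX(+).

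The 8 genes below 1 FPKM in both libraries included 5 tissue-restricted isoforms of complex IV. COX6A2 and COX7A1, the isoforms of heart and skeletal muscle, and COX6B2 and COX7B2, known from testis, were listed at 0 in both libraries. COX4I2, the lung and hypoxia isoform of COX4, was at 0 FPKM in DOX(-) against 0.138 in DOX(+). The other 3 were ATP5MGL, at 0.227 FPKM in DOX(-) against 0.203 in DOX(+), ATP5MF-PTCD1, at 0.444 FPKM in DOX(-) against 0.431 in DOX(+), and ATP5S, at 0.311 FPKM in DOX(-) against 0.907 in DOX(+). ATP5MGL is a relative of the membrane subunit gene ATP5MG, and ATP5S encodes the coupling factor B.

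The gene farthest below equal levels was COX7C (ENSG00000127184, chromosome 5, 86617904 to 86620962, GRCh38), a small subunit of cytochrome c oxidase. It was at 3.34 FPKM in DOX(-) against 8.25 in DOX(+), a ratio of 0.405. The 95% counting interval of this ratio was 0.224 to 0.688 with fragments set on the shortest annotated transcript, which gives the widest interval, and 0.315 to 0.521 on the longest. Such intervals cover counting error only. The level of COX7C was the lowest of the 12 complex IV genes tested in both libraries. Processed pseudogenes that carry its name or are annotated as its copies summed to 12.1 FPKM in DOX(-) against 12.2 in DOX(+), more than the gene itself. With them added the totals were 15.4 FPKM in DOX(-) against 20.4 in DOX(+), a log2 ratio of -0.39 that no longer reached 1.5-fold.

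NDUFC2 (ENSG00000151366, chromosome 11, 78068304 to 78080219), an accessory subunit of the membrane arm of complex I, was at 7.55 FPKM in DOX(-) against 13.2 in DOX(+). Its ratio was 0.571, with an interval of 0.405 to 0.808 on the shortest transcript, and its log2 ratio of -0.73 was -0.54, short of 1.5-fold, with a pseudocount of 5 FPKM. The readthrough gene NDUFC2-KCTD14 overlaps its exons in the same orientation and was listed at 3.83 FPKM in DOX(-) against 3.02 in DOX(+). The pair summed to 11.4 FPKM in DOX(-) against 16.2 in DOX(+), a ratio of 0.70, so the sum stood lower in DOX(-) as the gene alone did.

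NDUFB8 (ENSG00000166136, chromosome 10, 100523740 to 100530000), another accessory subunit of the membrane arm, was at 17.9 FPKM in DOX(-) against 11.5 in DOX(+). Its ratio was 1.56, with an interval of 1.17 to 2.095 on the shortest transcript. Its log2 ratio of 0.60 was 0.53 after rescaling without mitochondrial-genome genes and 0.47 with a pseudocount of 5 FPKM, both short of 1.5-fold. The overlapping gene AL133352.1, which shares its exons on the same strand, was on the other side, at 13.4 FPKM in DOX(-) against 18.1 in DOX(+). Their sums were 31.3 FPKM in DOX(-) against 29.6 in DOX(+), a ratio of 1.06. How the authors' software divided fragments between overlapping gene models was not tested. All 3 genes past the rule of size overlap, in the same orientation, an exon of another listed gene, in the case of COX7C with the microRNA gene AC108110.1, listed at 0 in both libraries. Among the 58 tested genes with no such overlap, none was 1.5-fold higher and none 1.5-fold lower in DOX(-). Such overlap was found for 23 tested genes. The share past the rule among all listed genes with and without such overlap was not computed. Whether overlap has a part in the 3 calls was therefore not tested. Adding AC108110.1 left the COX7C ratio at 0.405, while the sums given above for NDUFC2 and NDUFB8 lay nearer equal levels.

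The stretches before the RefSeq starts of 4 genes are shown for context: COX8A, the most abundant transcript of complex IV, UQCR11, whose window held matches to 3 of the 4 motifs searched, and COX7C and NDUFB8, which lay past the rule of size. They are RefSeq sequence of build GRCh38.p14, read 5′ to 3′ towards the gene, and end at the base before the RefSeq start for COX8A and UQCR11. COX7C and NDUFB8 are shown up to where annotated exons begin. The last 13 bases of the COX8A stretch and the last 28 of UQCR11 lie in annotated exons. The COX8A match to the ETS motif reaches into them, and the NRF1 matches of UQCR11 lie there wholly or almost wholly. Capitals mark matches, on either strand, to the NRF1 motif (GCGCA and GCGC with any 1 base between them), the ETS motif CCGGAAG, the YY1 motif ATGGCGGC or the E-box CACGTG. The COX8A stretch is chr11:63974370-63974619 on the plus strand, UQCR11 is chr19:1605463-1605712 on the minus strand, COX7C is chr5:86617691-86617903 on the plus strand and NDUFB8 is chr10:100530001-100530173 on the minus strand.
COX8A: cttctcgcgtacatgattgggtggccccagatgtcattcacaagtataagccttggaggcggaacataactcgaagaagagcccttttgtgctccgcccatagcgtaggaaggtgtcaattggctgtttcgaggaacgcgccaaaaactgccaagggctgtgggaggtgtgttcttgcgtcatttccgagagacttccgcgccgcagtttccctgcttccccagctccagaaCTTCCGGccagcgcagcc
UQCR11: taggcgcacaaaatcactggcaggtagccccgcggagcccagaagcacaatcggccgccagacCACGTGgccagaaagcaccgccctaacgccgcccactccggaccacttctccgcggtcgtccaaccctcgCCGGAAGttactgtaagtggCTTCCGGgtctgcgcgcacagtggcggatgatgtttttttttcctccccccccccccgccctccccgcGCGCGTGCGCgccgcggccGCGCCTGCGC
COX7C: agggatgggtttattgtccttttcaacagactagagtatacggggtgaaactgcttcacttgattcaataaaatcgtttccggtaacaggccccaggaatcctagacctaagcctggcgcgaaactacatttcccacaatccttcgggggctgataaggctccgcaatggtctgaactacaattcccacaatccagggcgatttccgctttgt
NDUFB8: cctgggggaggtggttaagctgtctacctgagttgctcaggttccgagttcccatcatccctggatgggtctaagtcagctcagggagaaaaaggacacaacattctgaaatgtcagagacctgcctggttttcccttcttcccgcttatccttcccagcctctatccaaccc

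NRF1, the ETS factor GABPA and YY1 are known regulators of nuclear genes for the respiratory chain. In windows from 250 bases before to 50 bases after the RefSeq start, available for 69 of the 89 genes, the NRF1 motif occurred in 17 genes (24.6%), against 8.58% of 15843 windows of protein-coding genes. The ETS motif occurred in 20 genes (28.99%), against 14.2% of coding windows, and the YY1 motif in 12 genes (17.4%), against 4.49%. The E-box occurred in 7 genes (10.1%), against 8.88% of coding windows. At least 1 motif was found in 42 genes (60.9%), against 30.04% of coding windows, and no matches of different motifs overlapped in these genes. The coding windows were not limited to genes expressed in these libraries, so the shares are not matched for level or base content. A match describes the letters only. The library difference was small on both sides of each split: the median log2 ratio was -0.02 for the 17 tested genes with an NRF1 match and 0.01 for the 49 without, 0.07 with an ETS match and -0.02 without, and 0.04 with a YY1 match and -0.02 without. The E-box medians were -0.02 with a match and 0.01 without. The listed levels in such sets differed most for the ETS motif, with a median of 45.5 FPKM in each library for the 20 genes with an ETS match, and of 13.8 FPKM in DOX(-) against 13.3 in DOX(+) for the 46 without. With an NRF1 match the median level was 25.8 FPKM in DOX(-) against 20.1 in DOX(+), and without one 20.3 against 17.8. Genes with a YY1 match lay lower than those without, at 18.2 FPKM in DOX(-) against 16.4 in DOX(+) with a match and 20.3 against 18.9 without. The E-box split had the same direction, at 14.1 FPKM in DOX(-) against 14.4 in DOX(+) with a match and 20.3 against 20.4 without.

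**Figure D2:**
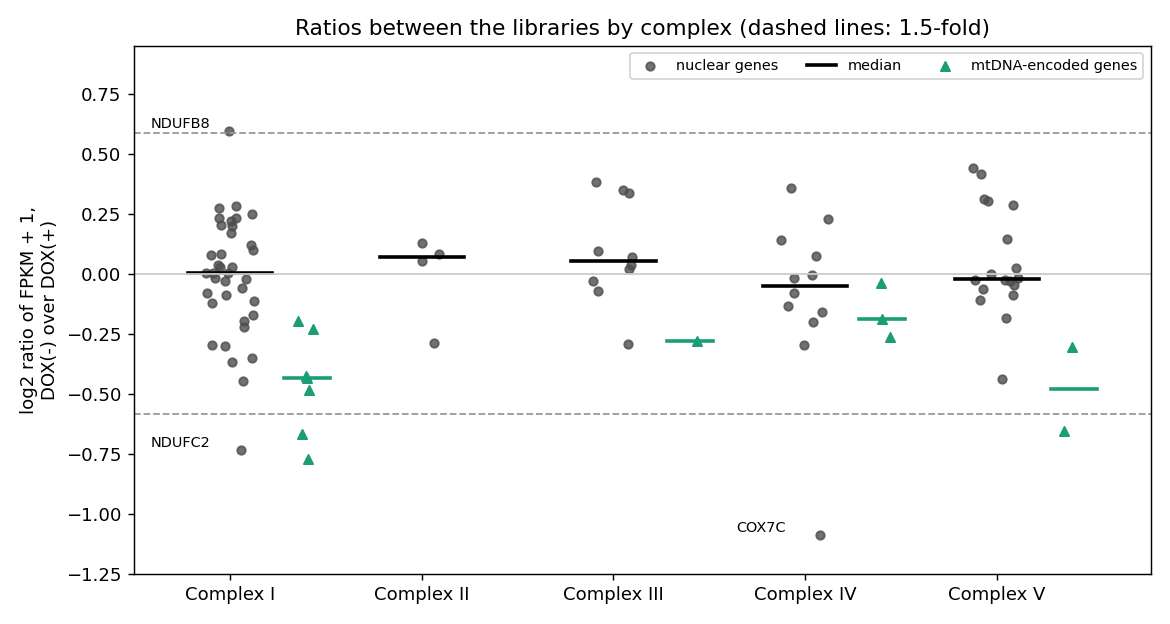
Log2 ratio of FPKM + 1, DOX(-) over DOX(+), of the tested nuclear genes (grey circles) and of the mitochondrially encoded subunits (green triangles) by complex, with bars for medians and dashed lines at 1.5-fold. Nuclear medians lie between -0.05 and 0.07, every mitochondrially encoded subunit lies below 0, and NDUFB8, NDUFC2 and COX7C are the nuclear genes outside the dashed lines.

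Complex I, the NADH dehydrogenase, had 20 of its 37 genes above 0 and 17 below, with a median log2 ratio of 0.00 that was -0.06 after rescaling without mitochondrial-genome genes. The 7 core subunits encoded in the nucleus, which carry the flavin and the iron-sulfur clusters, had a median of 0.12 with 6 of 7 above 0, of which NDUFS1 and NDUFS3 turned below 0 when FPKM were rescaled without mitochondrial-genome genes. NDUFV1, which binds the flavin, was at 12.9 FPKM in DOX(-) against 10.4 in DOX(+), a log2 ratio of 0.28. Its counting interval left out equal levels on the longest transcript, at 1.09 to 1.40, and included them on the shortest. NDUFV2, whose log2 ratio is the median of the 7, was at 23.8 FPKM in DOX(-) against 21.8 in DOX(+). With AP005263.1, a transcript that shares its exons and was listed at 0 in DOX(-) against 13.6 FPKM in DOX(+), its sum stood on the other side, at a ratio of 0.672. NDUFS7 was at 5.34 FPKM in DOX(-) against 4.39 in DOX(+). NDUFS1 (12.1 FPKM in DOX(-) against 11.9 in DOX(+)) and NDUFS3 (5.89 FPKM in DOX(-) against 5.87 in DOX(+)) were at nearly the same level in both libraries. NDUFS8 was the core subunit below 0, at 4.44 FPKM in DOX(-) against 5.23 in DOX(+).

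The 30 accessory genes of complex I had a median of -0.02, with 14 above 0 and 16 below. They spanned the widest range of levels of any complex. NDUFS5 (chromosome 1, 39026318 to 39034636) had the highest level of all subunit genes, 312 FPKM in DOX(-) against 278 in DOX(+), followed within the complex by NDUFB7, at 116 FPKM in DOX(-) against 98.5 in DOX(+). NDUFA5 was lowest, at 1.22 FPKM in DOX(-) against 1.86 in DOX(+). Several of the abundant genes had intervals above equal levels on the shortest transcript, among them NDUFS5 (1.07 to 1.18), NDUFB7 (1.08 to 1.29), NDUFA1 (1.06 to 1.29) and NDUFA8 (1.04 to 1.27). Each of these named genes has 1 or 2 annotated transcripts of nearly equal length, so the choice of transcript hardly changed the interval. After NDUFC2, the lowest ratio among accessory genes of 5 FPKM or more was that of NDUFA7, at 6.57 FPKM in DOX(-) against 9.33 in DOX(+), a log2 ratio of -0.45. The gene AC010323.1, which shares exons with NDUFA7, was listed at 20.3 FPKM in DOX(-) against 2.42 in DOX(+), and together they stood at 26.9 FPKM in DOX(-) against 11.7 in DOX(+), the opposite direction from NDUFA7 alone. NDUFA11 turned likewise, at 10.4 FPKM in DOX(-) against 11.4 in DOX(+) alone, and at 32.0 FPKM in DOX(-) against 21.2 in DOX(+) with AC024592.3 added. NDUFA7, NDUFA11 and NDUFV2 were the 3 that turned among the 23 tested genes that share an exon on the same strand, a comparison made after their values were seen. NDUFB3 was at 20.3 FPKM in DOX(-) against 25.2 in DOX(+), with an interval of 0.648 to 0.990, and NDUFA12 at 11.7 FPKM in DOX(-) against 15.3 in DOX(+), with an interval of 0.536 to 1.11.

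Complex II, succinate dehydrogenase, links the chain to the citric acid cycle, and its 4 genes had a median log2 ratio of 0.07, which turned to -0.00063 when FPKM were rescaled without mitochondrial-genome genes. SDHA, the flavoprotein, was at 26.5 FPKM in DOX(-) against 24.96 in DOX(+). SDHB, the iron-sulfur subunit, was at 55.5 FPKM in DOX(-) against 53.4 in DOX(+). Of the membrane anchors, SDHC was at 5.44 FPKM in DOX(-) against 4.89 in DOX(+), and SDHD at 8.59 FPKM in DOX(-) against 10.7 in DOX(+). The anchors were listed well below the catalytic subunits per length of transcript, and both had pseudogenes listed at higher levels than the genes themselves, as given below. On the shortest transcript none of the 4 intervals left out equal levels.

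Complex III, the cytochrome bc1 complex, had 7 of 10 genes above 0 and a median of 0.05, which was -0.01 after rescaling without mitochondrial-genome genes. CYC1, the cytochrome c1 subunit (chromosome 8, 144095027 to 144097525), was at 72.1 FPKM in DOX(-) against 55.0 in DOX(+), a ratio of 1.31 with an interval of 1.17 to 1.47. UQCRC2, a core scaffold subunit (chromosome 16, 21952660 to 21983660), was at 57.9 FPKM in DOX(-) against 45.6 in DOX(+), a ratio of 1.27 with an interval of 1.07 to 1.505. Their partners in the core differed less. UQCRC1 was at 68.9 FPKM in DOX(-) against 64.5 in DOX(+), and the Rieske iron-sulfur protein UQCRFS1 at 63.1 FPKM in DOX(-) against 66.4 in DOX(+). Among the small subunits, UQCR11 was at 25.8 FPKM in DOX(-) against 20.1 in DOX(+), a ratio of 1.29 with an interval of 1.03 to 1.61. UQCRB stood on the other side, at 11.6 FPKM in DOX(-) against 14.4 in DOX(+), with an interval of 0.613 to 1.05. UQCRH, the hinge subunit, was the most abundant gene of the complex, at 76.1 FPKM in DOX(-) against 77.7 in DOX(+), and its intronless copy UQCRHL was at 21.1 FPKM in DOX(-) against 20.6 in DOX(+).

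Complex IV, cytochrome c oxidase, had 4 of its 12 tested genes above 0 and a median of -0.05. COX7A2 and COX7B, at -0.02 and -0.00, turned above 0 under median-of-ratios and trimmed-mean scaling. COX8A (chromosome 11, 63974607 to 63976543), with a single annotated transcript, was at 228 FPKM in DOX(-) against 194 in DOX(+), a ratio of 1.17 with an interval of 1.10 to 1.251. COX5B, a zinc-binding subunit, was at 114 FPKM in DOX(-) against 104 in DOX(+), a ratio of 1.10 with an interval of 1.02 to 1.20. The gene with the highest ratio was COX7A2L, which promotes the joining of complexes III and IV, at 13.5 FPKM in DOX(-) against 10.3 in DOX(+), with an interval of 0.993 to 1.73. COX4I1, the ubiquitous isoform of the largest nuclear-encoded subunit, was at 7.88 FPKM in DOX(-) against 9.90 in DOX(+), and COX6A1, the non-muscle isoform of COX6A, at 54.5 FPKM in DOX(-) against 62.8 in DOX(+). Moving NDUFA4 into this complex left its median at -0.03.

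Where complex IV has isoforms, the HL60 libraries listed the ubiquitous ones. COX6B1 was at 62.7 FPKM in DOX(-) against 59.5 in DOX(+), COX7A2 at 27.2 FPKM in DOX(-) against 27.6 in DOX(+), and COX7B at 39.4 FPKM in DOX(-) against 39.5 in DOX(+), while their partners COX6B2, COX7A1 and COX7B2 were at 0. The exception was COX8C, an isoform known from testis, at 11.1 FPKM in DOX(-) against 12.3 in DOX(+) on chromosome 14 (93347191 to 93348356), with a single annotated transcript and no other gene's exon overlapping it on its strand. Its level was far under that of COX8A, and its ratio of 0.905 had an interval of 0.686 to 1.19.

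In complex V, the ATP synthase, 7 of 18 tested genes were above 0 and the median was -0.02, which became 0.00066 under trimmed-mean scaling. The catalytic head holds alpha and beta subunits in equal number, and their genes lay on opposite sides. ATP5F1B, the beta subunit (chromosome 12, 56638175 to 56646068), was at 125 FPKM in DOX(-) against 91.9 in DOX(+), a ratio of 1.36 with an interval of 1.23 to 1.51. ATP5F1A, the alpha subunit (chromosome 18, 46080248 to 46104334), was at 17.1 FPKM in DOX(-) against 23.5 in DOX(+), a ratio of 0.727 with an interval of 0.578 to 0.910. No other listed gene overlaps the exons of either on its strand. The other head subunits, ATP5F1C (33.5 FPKM in DOX(-) against 38.3 in DOX(+)), ATP5F1D (7.39 FPKM in DOX(-) against 7.498 in DOX(+)) and ATP5F1E (5.46 FPKM in DOX(-) against 5.86 in DOX(+)), had ratios below 1, and ATP5F1D turned above 0 under median-of-ratios and trimmed-mean scaling.

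The peripheral stalk, which holds the head still against the rotor, had a median of 0.22 over 4 genes. ATP5PO was at 31.3 FPKM in DOX(-) against 23.2 in DOX(+), a log2 ratio of 0.42, ATP5PD at 22.2 FPKM in DOX(-) against 17.8 in DOX(+), and ATP5PF at 72.6 FPKM in DOX(-) against 65.7 in DOX(+). ATP5PB was at 36.3 FPKM in both libraries. On the shortest transcript the ATP5PD interval was 1.01 to 1.53, while those of ATP5PO, 0.965 to 1.90, and ATP5PF, 0.986 to 1.24, included equal levels. The c ring is encoded by 3 genes for the same mature protein, and the most abundant was ATP5MC3, at 41.9 FPKM in DOX(-) against 42.8 in DOX(+). ATP5MC2 was at 25.6 FPKM in DOX(-) against 20.4 in DOX(+), and ATP5MC1 at 14.1 FPKM in DOX(-) against 14.4 in DOX(+). Of 5 tested membrane accessory genes 4 lay below 0, with a median of -0.05, and ATP5MG was the one above, at 20.3 FPKM in DOX(-) against 16.4 in DOX(+). The inhibitor ATP5IF1 was at 25.1 FPKM in DOX(-) against 24.7 in DOX(+).

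**Figure D3:**
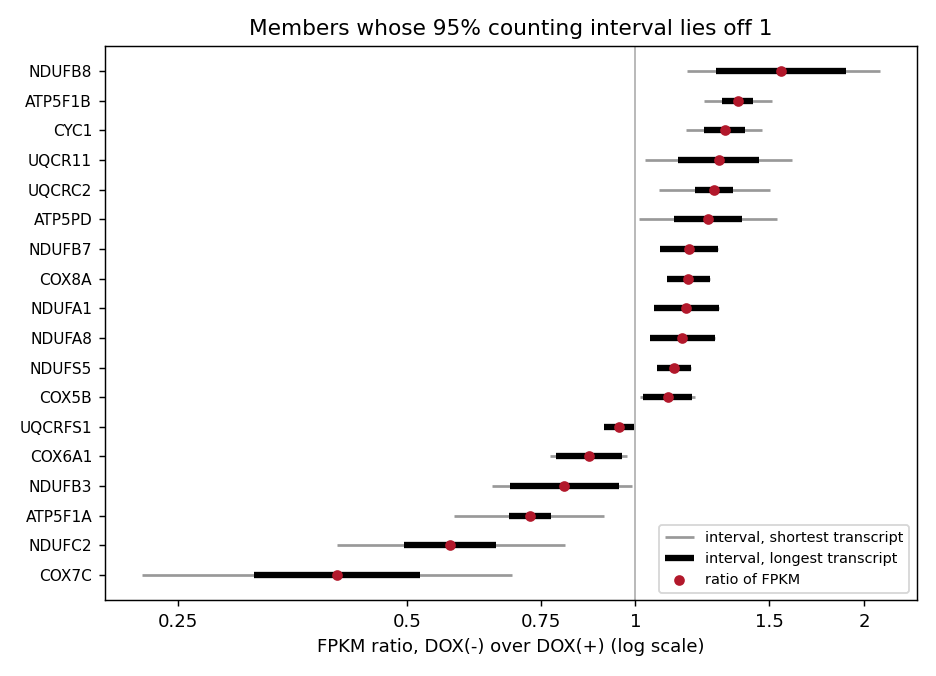
Ratio of FPKM, DOX(-) over DOX(+), on a log scale for the 18 subunit genes whose 95% counting interval left out 1 on the shortest annotated transcript (thin lines), with the interval on the longest transcript as thick lines. NDUFB8, ATP5F1B and CYC1 head the 12 genes above 1, and COX7C, NDUFC2 and ATP5F1A are farthest below 1.

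Intervals that left out equal levels were more common than calls by size, most of them in abundant genes such as NDUFS5, COX8A and ATP5F1B. On the shortest transcript, 12 of the 81 genes had an interval above 1 and 6 below, against 7.6% and 8.52% of all genes for which intervals were computed. On the longest transcript the counts were 24 above and 14 below, against 18.1% and 23.4%. These shares were not matched for level, and counting intervals are narrower for genes with more fragments. The median in DOX(-) was 20.3 FPKM in the group and 4.70 over all genes tested. All intervals were set on FPKM as deposited and were not recomputed under the other scalings, whose factors ran from 0.983 to 1.05. Some bounds on the shortest transcript lay as near 1 as these factors. They were the lower bounds of NDUFA8 (1.04), UQCR11 (1.03), COX5B (1.02) and ATP5PD (1.01), and the upper bounds of UQCRFS1 (0.994) and NDUFB3 (0.990). The 18 genes with a mean level of 50 FPKM or more had 14 above 0 and a median of 0.14, while all 674 genes at such levels had 63.5% above 0 and a median of 0.07. At 5 to 20 FPKM, 13 of 31 subunit genes lay above 0, with a median of -0.02, and all 3884 genes at such levels had 46.5% above 0 and a median of -0.02.

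The listed level of a subunit gene went with the number of transcripts annotated for it. The 10 tested genes with 1 or 2 transcripts had a median of 60.9 FPKM in DOX(-) against 53.6 in DOX(+), among them NDUFS5, COX8A and NDUFB7. The 25 genes with 10 or more, among them NDUFV1, COX4I1 and ATP5F1A, had a median of 12.1 FPKM in DOX(-) against 10.7 in DOX(+). Over all tested protein-coding genes the same groups had medians of 6.97 FPKM in DOX(-) against 7.49 in DOX(+) for 1 or 2 transcripts, and of 4.50 FPKM in DOX(-) against 4.57 in DOX(+) for 10 or more. Subunits of the same complex were listed at levels that differ many-fold, and the part that the estimation of transcripts has in this was not tested.

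Many of these genes have processed pseudogenes, and in several families the copies were listed above the gene. The annotation names 266 pseudogenes after 58 of the 89 genes, of which 57 were above 0 and 25 at 1 FPKM or more in at least 1 library. They summed to 580 FPKM in DOX(-) against 536 in DOX(+). The highest was COX6A1P2, at 276 FPKM in DOX(-) against 224 in DOX(+), beside COX6A1 at 54.5 FPKM in DOX(-) against 62.8 in DOX(+). Their sum was 330.2 FPKM in DOX(-) against 286 in DOX(+), so the log2 ratio of -0.20 for COX6A1 alone stood at 0.20 for gene and pseudogenes together. SDHDP6 was at 58.6 FPKM in DOX(-) against 64.3 in DOX(+), several times the level of SDHD. UQCRFS1P1 was at 71.1 FPKM in DOX(-) against 67.1 in DOX(+), about the level of UQCRFS1, and AC022968.1, a copy of ATP5PB, at 48.9 FPKM in DOX(-) against 53.5 in DOX(+).

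In 7 of the 81 genes the pseudogenes summed above the gene in both libraries, and 6 genes changed sign when they were added. With pseudogenes included, 43 of 81 genes were above 0, the median was 0.01, NDUFB8 remained the gene 1.5-fold higher and NDUFC2 the gene 1.5-fold lower, and the totals were 3392 FPKM in DOX(-) against 3173 in DOX(+). The division of fragments between a gene and its copies depends on the alignment, and the identity of their sequences was not computed. The levels of COX6A1, SDHD, SDHC, UQCRFS1, ATP5PB, NDUFA5 and COX7C are therefore uncertain. The same holds for NDUFA4, whose pseudogenes summed to 1.02 times the gene in DOX(-) and 0.825 times in DOX(+). For NDUFV2 these shares were 0.787 in DOX(-) and 0.736 in DOX(+).

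**Figure D4:**
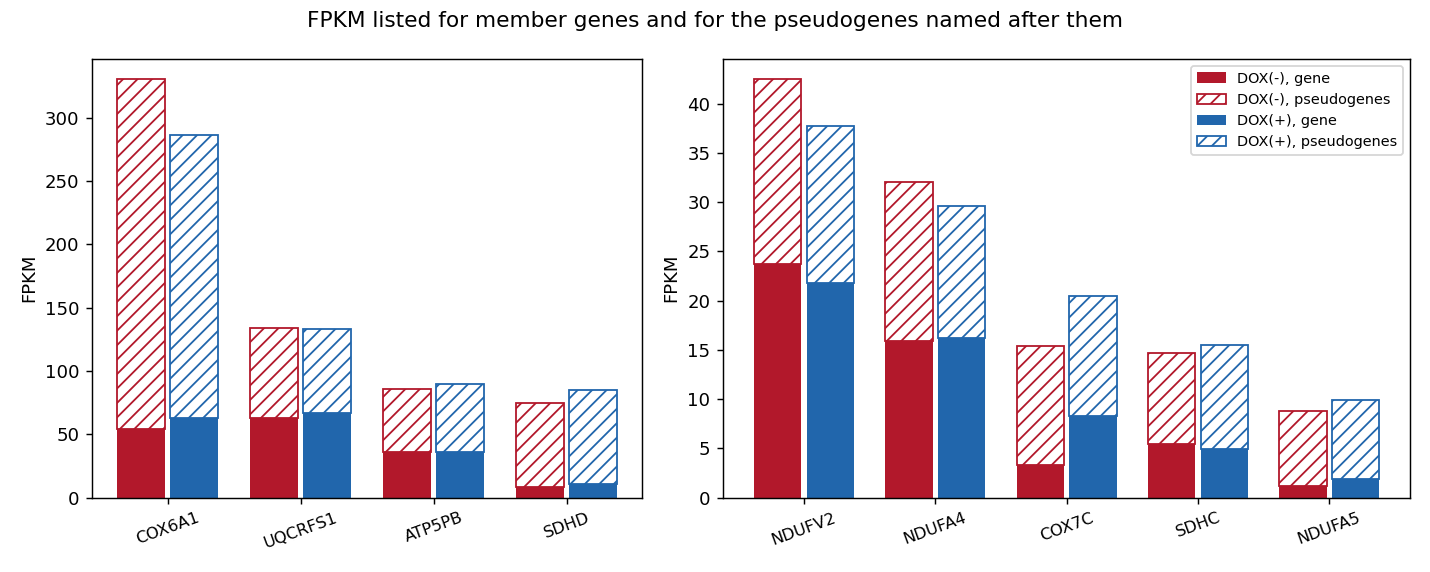
FPKM of subunit genes (filled) with the summed FPKM of the pseudogenes named after them (hatched) stacked on top, DOX(-) in red to the left of DOX(+) in blue. For COX6A1, UQCRFS1, ATP5PB, SDHD, COX7C, SDHC and NDUFA5 the hatched part exceeds the filled part in both libraries, with 276 FPKM in DOX(-) against 224 in DOX(+) for COX6A1P2.

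The same complexes hold subunits encoded by the mitochondrial genome, and these stood lower in DOX(-) while the nuclear medians lay near 0. All 13 mitochondrially encoded subunits lay below 0, with a median of -0.31, and summed to 59767 FPKM in DOX(-) against 73814 in DOX(+), a ratio of 0.81. They share 1 genome and were read in 1 library per condition, so they are not 13 independent observations. By design, doxycycline treatment and the state of the transgene change together between the libraries, so their parts in this difference cannot be told apart. By complex, the median was -0.44 over 7 genes in complex I, and the 1 gene of complex III, MT-CYB, was at -0.28. The median was -0.19 over 3 genes in complex IV and -0.48 over 2 genes in complex V. The nuclear medians of complexes I, III, IV and V were 0.00, 0.05, -0.05 and -0.02. In complex IV, MT-CO3 was at 9638 FPKM in DOX(-) against 9902 in DOX(+), the ratio nearest 1 among the 13. MT-ND5, at a ratio of 0.585, and MT-ND6, at 0.628, were farthest from equal levels. In the core of complex I, MT-ND1 was at a ratio of 0.739 (2926 FPKM in DOX(-) against 3959 in DOX(+)). Of the 7 nuclear core genes 6 lay above 0, from NDUFS3 at a ratio of 1.004 to NDUFV1 at 1.24, and NDUFS8 was at 0.849. FPKM are relative to the library total, of which the mitochondrially encoded subunits made up 21.2% in DOX(-) against 25.7% in DOX(+). Rescaling without the mitochondrial genome moved the nuclear median to -0.06 and the median of all genes to -0.08.

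The assembly factors of the complexes were described in the same way. Over all genes tested, 3.11% were 1.5-fold higher and 4.06% lower. For complex I, 1 of 17 tested factors was 1.5-fold higher and none lower, ECSIT, at 5.99 FPKM in DOX(-) against 3.36 in DOX(+), and the median was 0.04, or -0.02 after rescaling without mitochondrial-genome genes. TMEM186 came next, at 6.52 FPKM in DOX(-) against 4.54 in DOX(+). The 4 assembly factors of complex II were all above 0 under each scaling, with a median of 0.35. Of all genes tested, 37.4% to 49.9% were above 0, depending on the scaling. SDHAF2, which helps attach the flavin to SDHA, was at 2.90 FPKM in DOX(-) against 1.24 in DOX(+), a ratio of 2.34 with an interval of 1.06 to 5.58. SDHAF4 was at 12.1 FPKM in DOX(-) against 8.14 in DOX(+), a ratio of 1.49 with an interval of 1.02 to 2.20. For complex III, TTC19 was the 1 of 7 factors past 1.5-fold, at 6.24 FPKM in DOX(-) against 3.41 in DOX(+), while LYRM7, a chaperone of the Rieske protein, was at 5.14 FPKM in DOX(-) against 6.19 in DOX(+). None of 21 tested factors of complex IV reached 1.5-fold in either direction, COA7 being farthest at 12.5 FPKM in DOX(-) against 18.7 in DOX(+). The copper chaperone COX17 was at 5.05 FPKM in DOX(-) against 3.52 in DOX(+). None of the 3 factors tested for complex V reached it either. Among them TMEM70 was at 3.90 FPKM in DOX(-) against 5.54 in DOX(+), and TMEM242 at 3.87 FPKM in DOX(-) against 5.05 in DOX(+).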

How the data were processed

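RNA was isolated with Trizol and turned into Illumina libraries with an NEB kit, per the labels' protocols. The authors deposited 1 table of FPKM, with 1 value for each gene in each library. StringTie 1.3.4b, HISAT2 2.1.0, CASAVA 1.8 and edgeR are named in the submitters' processing notes without their roles, as are hg38 and GRCh38. Strandedness is not stated in the sources used here.

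Genes that reached 1 FPKM in at least 1 library were compared as the log2 ratio of FPKM + 1, a pseudocount that pulls low genes towards 0, with Python 3.11.15, pandas 2.3.3 and scipy 1.17.1. Depth was recovered from genes with 1 annotated transcript: of values up to 100 fragments, 99.98% in DOX(-) and 99.97% in DOX(+) were whole within 0.02 fragment. Fragments of a gene with several transcripts cannot be recovered, so exact conditional 95% intervals of a ratio used the shortest and the longest transcript of GENCODE release 29, where all 89 identifiers were found and 86 had the same locus. Without molecular identifiers, fragments may be copies of 1 molecule.

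Named were genes 1.5-fold different, the 2 highest and 2 lowest ratios per complex at 5 FPKM or more in both libraries, the highest level per complex, paralogues, complex II and core subunits, and in other lists the genes 1.5-fold different and the 2 largest differences at 2 FPKM or more, with EIF2S3. Others were named for intervals, partners or pseudogenes after their values were seen. The members and the 18 gene lists (155 symbols, 153 found) were chosen with earlier results of these data known. Alternatives covered pseudocount, filter, threshold, scaling, shared exons, the grouping of NDUFA4, readthrough genes and added pseudogenes. The statistics were tested on simulated data. RefSeq promoter windows matched 69 genes, by symbol. The values of 1 gene are not reported here.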

Additional observations from a re-analysis of the deposited data

How the results depend on the processing

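Of 94 values recomputed for counts and medians, 13 moved beyond the limit set, 1.5 times for a count and 0.1 for a log2 median. Genes 1.5-fold higher in DOX(-), 1 as reported, numbered 0 with a pseudocount of 5 FPKM, 0 after rescaling without mitochondrial-genome genes, and 0 among genes sharing no exon on the same strand (58 tested) or on either strand (37 tested, chosen after seeing the data). Genes 1.5-fold lower, 2 as reported, numbered 1 with a pseudocount of 5 FPKM, 1 with pseudogene FPKM added (chosen after seeing the data), and 0 in both sets without shared exons. A smaller size limit, 0.32 on the log2 scale, gave 7 higher and 6 lower, and 2-fold gave 0 higher and 1 lower. The median of complex II was -0.037 with pseudogenes added. Among single genes, NDUFB8 was at 0.47 and NDUFC2 at -0.54 with a pseudocount of 5 FPKM, NDUFB8 at 0.53 after rescaling without mitochondrial-genome genes, and COX7C at -0.39 with pseudogenes added. The median of all 81 genes stayed between -0.06 and 0.03, and that of the mitochondrially encoded subunits between -0.38 and -0.28. No paired analysis was possible because each condition has 1 library and the labels carry no replicate numbers, and leaving out a replicate was not possible for the same reason. Depth limits the low genes most: the COX7C interval spans 0.224 to 0.688, and adding FPKM of genes of unequal length gives no exact total.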

Other observations

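The citric acid cycle, which feeds NADH and succinate to complexes I and II, had 11 of 13 genes above 0, with a median log2 ratio of 0.15. After rescaling without mitochondrial-genome genes it had 10 of 13 with a median of 0.08, where DLST turned below 0. Over all genes tested, 46.6% were above 0 as deposited and 37.4% after that rescaling, shares that were not matched for level. SUCLG2, a subunit of the GTP-forming succinyl-CoA ligase, was at 27.1 FPKM in DOX(-) against 18.1 in DOX(+) with an interval of 1.33 to 1.69, just under 1.5-fold on FPKM + 1. Its ATP-forming partner SUCLA2 lay on the other side, at 6.61 FPKM in DOX(-) against 8.26 in DOX(+), with an interval of 0.460 to 1.42. MDH2, malate dehydrogenase, was at 131 FPKM in DOX(-) against 108 in DOX(+), and DLD, the dihydrolipoamide dehydrogenase shared by several complexes, at 14.3 FPKM in DOX(-) against 18.6 in DOX(+). In coenzyme Q synthesis, 1 of 12 tested genes was 1.5-fold higher, against 3.11% of all genes tested. This was COQ10B, which encodes a coenzyme Q-binding protein, at 5.83 FPKM in DOX(-) against 3.09 in DOX(+), and none was 1.5-fold lower. The kinase-like COQ8A was at 6.68 FPKM in DOX(-) against 4.71 in DOX(+).

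Of 8 tested regulators of mitochondrial biogenesis, 1 was above 0 and 7 below, with a median of -0.10, against 46.6% of all genes tested above 0. These shares were not matched for level. YY1 turned above 0 under median-of-ratios and trimmed-mean scaling. None was 1.5-fold different on FPKM + 1, against 7.17% of all genes tested in either direction. GABPA, which binds the ETS motif, was at 6.66 FPKM in DOX(-) against 10.3 in DOX(+), a ratio of FPKM of 0.650 with an interval of 0.492 to 0.853. Its log2 ratio on FPKM + 1 was -0.55, just short of the rule of size. TFAM, the packaging and transcription factor of mitochondrial DNA, was at 10.6 FPKM in DOX(-) against 14.8 in DOX(+), a ratio of 0.720 with an interval of 0.567 to 0.916. NRF1 was at 3.06 FPKM in DOX(-) against 3.64 in DOX(+). Outside the symbol rule, the acyl carrier subunit NDUFAB1 was at 32.4 FPKM in DOX(-) against 31.6 in DOX(+), and cytochrome c (CYCS), the carrier between complexes III and IV, at 29.02 FPKM in DOX(-) against 36.5 in DOX(+), with an interval of 0.671 to 0.942. NDUFA4L2, the hypoxia-induced relative of NDUFA4, was below 1 FPKM in both, at 0.696 in DOX(-) against 0.412 in DOX(+).

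Of the 81 tested subunit genes, 15 (18.5%) start within 1000 bases of a protein-coding gene on the other strand that runs the opposite way, against 10.9% of tested protein-coding genes. Levels within such pairs were often far apart: NDUFS6 was at 78.6 FPKM in DOX(-) against 74.5 in DOX(+), and its neighbour MRPL36 at 5.95 FPKM in DOX(-) against 4.74 in DOX(+). Among genes sharing exons with a subunit gene, AC024592.3 beside NDUFA11 was at 21.5 FPKM in DOX(-) against 9.73 in DOX(+), and AC011448.1 beside NDUFA13 at 20.7 FPKM in DOX(-) against 9.52 in DOX(+). AP005263.1 beside NDUFV2 was listed at 0 FPKM in DOX(-) against 13.6 in DOX(+).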
